A study of Danio rerio with 8 samples.

Results

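Genes that mark radial glia and astroglia were read out in libraries made from single CaD neurons, the commissural cells of the caudal brainstem nucleus CaD. The 4 genes were chosen by their Ensembl IDs, 4 of the 37287 features in the deposited values: gfap (ENSDARG00000025301), fabp7a (ENSDARG00000007697), apoeb (ENSDARG00000040295) and s100b (ENSDARG00000057598). Neurons were backfilled from the spinal cord in Tg(Glyt2:GFP) zebrafish larvae of 12 to 14 days (also spelled gly2 in the labels), a line in which GFP is driven in glycinergic cells. They were drawn into a glass pipette, and their RNA was amplified and sequenced (patch-seq). The 8 libraries, named M1, M2 and so on up to M17 with gaps in the numbers, form 1 group of untreated cells, 1 cell per fish by the labels, and no second cell type or condition was compared here. Values are FPKM, the fragments counted on a gene per kilobase of its length and scaled to all fragments counted in the library, so that levels of different genes in a library are on the same scale per length.

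Radial glia line the ventricles of the brain with a long process that reaches its surface, and in fish they persist after development and carry out tasks of mammalian astrocytes, such as uptake of transmitters and supply of lipids. The gene gfap encodes the intermediate filament protein that defines these cells, and fabp7a a brain-type fatty acid binding protein of radial glia. Apolipoprotein E, encoded by apoeb, carries lipids and cholesterol. In the zebrafish brain it is made by microglia as well. The product of s100b is a small calcium binding protein of astroglia which, in mammals, is also found in the oligodendrocyte lineage. Neither neurons nor their axons are textbook sites of gfap.

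The library M1 was not independent of others. At 17836 features with at least 10 reads in M11, M16 and M17 together, M1 had at least their summed reads at 96.6% and exactly their sum at 43.6%. Results are therefore given with M1 and without it. Counted reads per library ranged from 9861756 in M16 to 13761924 in M6, with 47723986 in M1. M17 had the fewest features at an FPKM of at least 1 (7224, against 9637 to 13643 in the other 6 without M1), and the largest share of its reads (56.8%, against 21.8% to 43.8%) fell on a single feature, ENSDARG00000080337. The neuronal genes elavl3 and elavl4, which encode RNA-binding proteins, lay between 115 and 283 FPKM and between 103 and 270 FPKM in the 7 libraries without M1. The defining marker of glycinergic cells was nearly absent: slc6a5, which encodes the glycine transporter GlyT2 after which the line is named, was listed at 0 in M2 and M16 and reached FPKM 1 in M11 alone (1.22). SLC32A1, the vesicular transporter of glycine and GABA, was at 26.9 FPKM in M11, 5.64 in M17 and 2.95 in M6. It was at most 0.0580 in the others without M1. Of other listed genes, SLC6A9, for another glycine transporter, reached FPKM 5 in 4 of 7 libraries without M1. For commissural identity, lhx1a and lhx5 reached FPKM 1 in 7 of 7 and ROBO3 in 6, but PAX8 in 1 and the features named DBX1 in 1 and 0. The paper reports that its sequenced CaD neurons carry markers of glycinergic transmission and of V0d identity. Its further evidence on V0d neurons of CaD includes axons that cross the midline and inhibitory potentials in motoneurons that strychnine blocked.

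Reads of all 4 genes were found in these libraries, and fabp7a and s100b were among the high features of every library. The limit of FPKM 1 was reached by fabp7a, apoeb and s100b in 8 of 8 libraries and by gfap in 7 of 8. Without M1 the numbers were 7 of 7 for the former and 6 of 7 for gfap. Of the 31901 features with an Ensembl ID, 10.7% reached FPKM 1 in every library, both with and without M1, and 16.5% did so in at least 7 of 8 (16.6% in at least 6 of 7 without M1). FPKM 5 was reached by fabp7a and s100b in 8 of 8 libraries, and by gfap and apoeb in 6 of 8. Without M1 these numbers were 7 of 7 and 5 of 7. Of the same features, 5.23% reached FPKM 5 in all 8 libraries and 10.6% in at least 6 of them. Without M1 the shares were 5.24% for all 7 and 11.5% for at least 5. Detection in so many libraries was thus shared with more than 1 in 20 features at either limit.

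**Figure D1:**
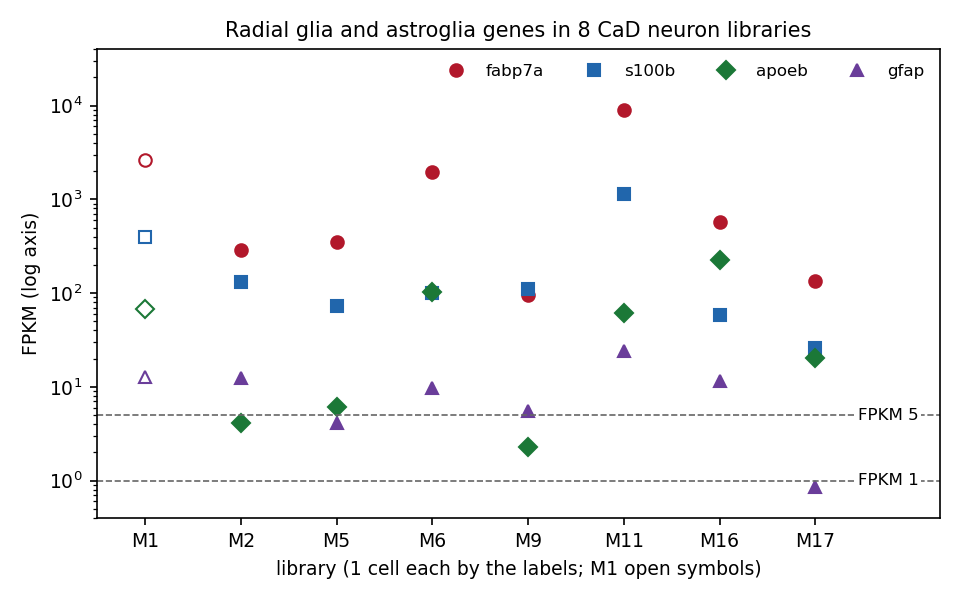
FPKM of the 4 genes on a log axis (vertical) in each of the 8 libraries (horizontal). Symbols are single libraries, open for M1, and dashed lines mark FPKM 1 and 5. M11 is highest in fabp7a, s100b and gfap, M16 in apoeb, and only gfap in M17 (0.859) lies below 1.

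The highest of the 4 genes was fabp7a, which encodes the fatty acid binding protein. Its FPKM was 8963 in M11, 1975 in M6, 569 in M16, 352 in M5, 288 in M2, 136 in M17 and 94.4 in M9, and 2641 in M1. The cells fell into a broad range with M11 far above and M6 next, whereas M9 and M17 were low. Over the 7 libraries without M1 the mean was 1768 ± 3238 (SD, n = 7) and the median 352, and the highest value was 94.98 times the lowest, or 20.9 times with M11 left out as well. M11 lay 28.0-fold above the median of the other 6 libraries and M6 6.17-fold above that of its own other 6. In M11, fabp7a held rank 7 of the 37287 features by FPKM, and in M9, its lowest library, rank 401. Its reads made up 0.556% of all counted reads in M11 (95% Wilson confidence interval 0.552 to 0.560%) and 0.00585% in M9 (0.00540 to 0.00634%). These intervals and those below describe counting error alone, because reads copied by amplification are not separate molecules.

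The calcium binding protein gene s100b followed as the second highest. Its FPKM was 1143 in M11, 131 in M2, 110 in M9, 101 in M6, 73.0 in M5, 58.3 in M16 and 25.7 in M17, and 399 in M1. M11 stood apart again, 13.2-fold above the median of the other 6 libraries without M1, and M17 was lowest. The 5 remaining libraries lay within 58.3 to 131 FPKM, a narrower band than that of fabp7a. The mean without M1 was 234 ± 402 (SD, n = 7) and the median 101, with a 44.5-fold range that was 5.09-fold without M11 and 19.6-fold without M17.

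The apolipoprotein gene apoeb had a different order of cells. Its FPKM was 223 in M16, 104 in M6, 61.9 in M11, 20.5 in M17, 6.03 in M5, 4.07 in M2 and 2.27 in M9, and 68.3 in M1. M16, M6 and M11 were high and M2, M5 and M9 low, with M17 between them. M16 lay 16.8-fold above the median of the other 6 and M9 18.2-fold below that of its own other 6. The mean without M1 was 60.3 ± 81.1 (SD, n = 7), the median 20.5, and the range between lowest and highest 98.5-fold, or 45.9-fold without M16. With M1 the median was 41.2, and it stood at 20.5 or 61.9 whenever 1 of the 8 libraries was left out.

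The filament gene gfap was the lowest of the 4 by median. Its FPKM was 24.2 in M11, 12.5 in M2, 11.5 in M16, 9.79 in M6, 5.46 in M9, 4.07 in M5 and 0.859 in M17, and 12.9 in M1. M11 was highest by 1.93-fold over the next library without M1, and M17 lay 12.4-fold below the median of the other 6. The mean without M1 was 9.76 ± 7.62 (SD, n = 7) and the median 9.79, with a 28.1-fold range that was 5.93-fold without M17 and 14.5-fold without M11.

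The low values of gfap and apoeb stood for few reads, and some of them could not be placed on either side of a limit at this depth. The FPKM of 0.859 of gfap in M17 came from 26 reads, and its exact 95% Poisson interval of 0.561 to 1.26 FPKM included the limit of 1. The 146 reads of gfap in M9 gave an interval of 4.61 to 6.42 FPKM, which included 5, while the 113 reads in M5 gave 3.36 to 4.90. For apoeb, the 57 reads in M2 (3.08 to 5.27 FPKM) and the 69 reads in M5 (4.69 to 7.63 FPKM) both allowed FPKM 5, while the 25 reads in M9 did not (1.47 to 3.35 FPKM). By contrast the smallest number of reads on fabp7a was 590 and on s100b 606.

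**Figure D2:**
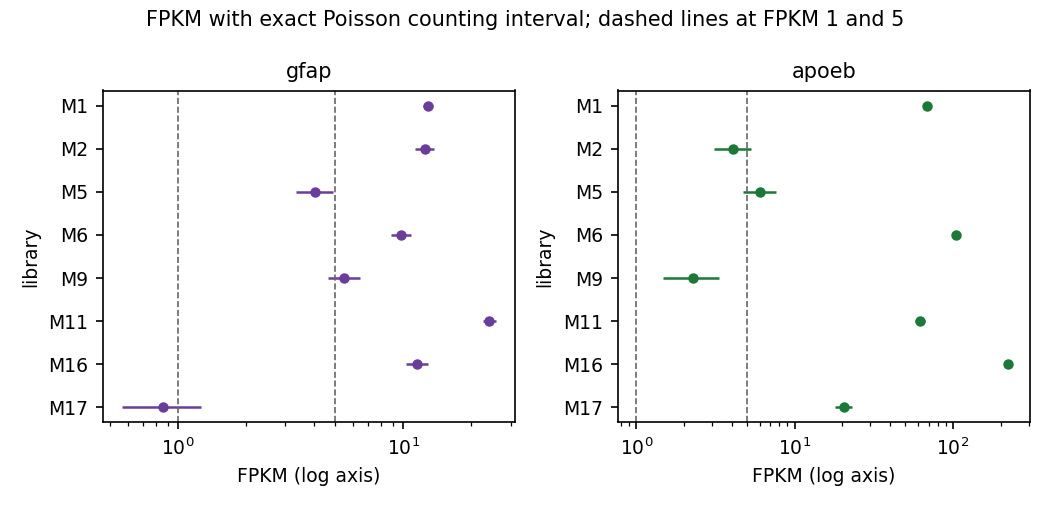
FPKM (horizontal, log axis) of gfap and apoeb in each library (vertical), with points for the deposited value and bars for the exact 95% Poisson counting interval. Dashed lines mark FPKM 1 and 5. The bars of gfap in M17 and M9 and of apoeb in M2 and M5 cross a limit.

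Ordered by their levels, the genes ran from fabp7a through s100b and apoeb to gfap, but no step between neighbours in this order passed its test. The step from fabp7a to s100b was 2.29 ± 1.47 on the log2(FPKM + 1) scale (SD, n = 7), and fabp7a was higher in 6 of 7 libraries (two-sided exact permutation test by sign flips, p = 0.0312, adjusted p = 0.0938 over 3 steps). The exception was M9, where fabp7a was 0.860 times s100b, against 19.6 times in M6. The step from s100b to apoeb was 2.24 ± 2.75 and had s100b higher in 5 of 7 (exact permutation test, p = 0.0938, adjusted p = 0.141). It ran from 48.4 times in M9 to 0.261 times in M16. The step from apoeb to gfap was 1.48 ± 2.24 and had apoeb higher in 5 of 7 (exact permutation test, p = 0.156, adjusted p = 0.156), from 23.9 times in M17 to 0.326 times in M2. With 7 libraries the smallest p such a test can give is 0.0156. The order itself was read from the same 7 libraries, so these p-values cannot serve as a test of it. Genes that are not neighbours in the order were not tested. In every library fabp7a was above apoeb and gfap, and s100b was above gfap.

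As for variation between cells, fabp7a and apoeb were among the most variable features and gfap was ordinary. Over the 7 libraries, the SD of log2(FPKM + 1) was 2.28 for fabp7a, 2.36 for apoeb, 1.67 for s100b and 1.21 for gfap. The median was 1.13 over the 12167 features that reached FPKM 1 in 3 or more of these libraries. Of these features, 1.84% had a larger SD than fabp7a, 1.45% than apoeb, 12.8% than s100b and 42.5% than gfap. The neuronal gene elavl3, in the same libraries, had an SD of 0.418 and a 2.46-fold range.

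The question whether the 4 genes rose together had a mixed answer. All 4 reached FPKM 1 in the same 7 of 8 libraries, M17 being the exception through gfap (6 of 7 without M1). This is the number of gfap alone, since the other genes reached FPKM 1 in every library. FPKM 5 was reached by all 4 in M1, M6, M11 and M16, 4 of 8 (3 of 7 without M1). Only gfap (in M5 and M17) and apoeb (in M2 and M9) fell short of it, in different libraries. The overlap was thus the smallest that their own numbers allow, and these counts do not show a joint rise. With FPKM rescaled to a sum of 1000000 in each library, the numbers with all 4 genes were 8 of 8 at FPKM 1 and 6 of 8 at FPKM 5. They were the same with the highest feature left out and the rest scaled up to the former sum. Both scalings raise every value and so act like lower limits. The first does so because the sums of FPKM were 572073 to 672550, and the second because the highest feature no longer counts in the sum. Unscaled, limits of 0.5 and 2.5 also gave 8 of 8 and 6 of 8. Across the 7 libraries without M1, Spearman's rho was 0.75 for gfap with s100b and for fabp7a with apoeb, and 0.61 for gfap with fabp7a. It was lower for fabp7a with s100b (0.29) and gfap with apoeb (0.25), and negative for apoeb with s100b (-0.32). The 6 pairs had a median of 0.45 without M1 and of 0.61 with it. These correlations describe 7 or 8 libraries that share library effects, and M1, which repeats reads of M11, M16 and M17, cannot count as a further independent cell.

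**Figure D3:**
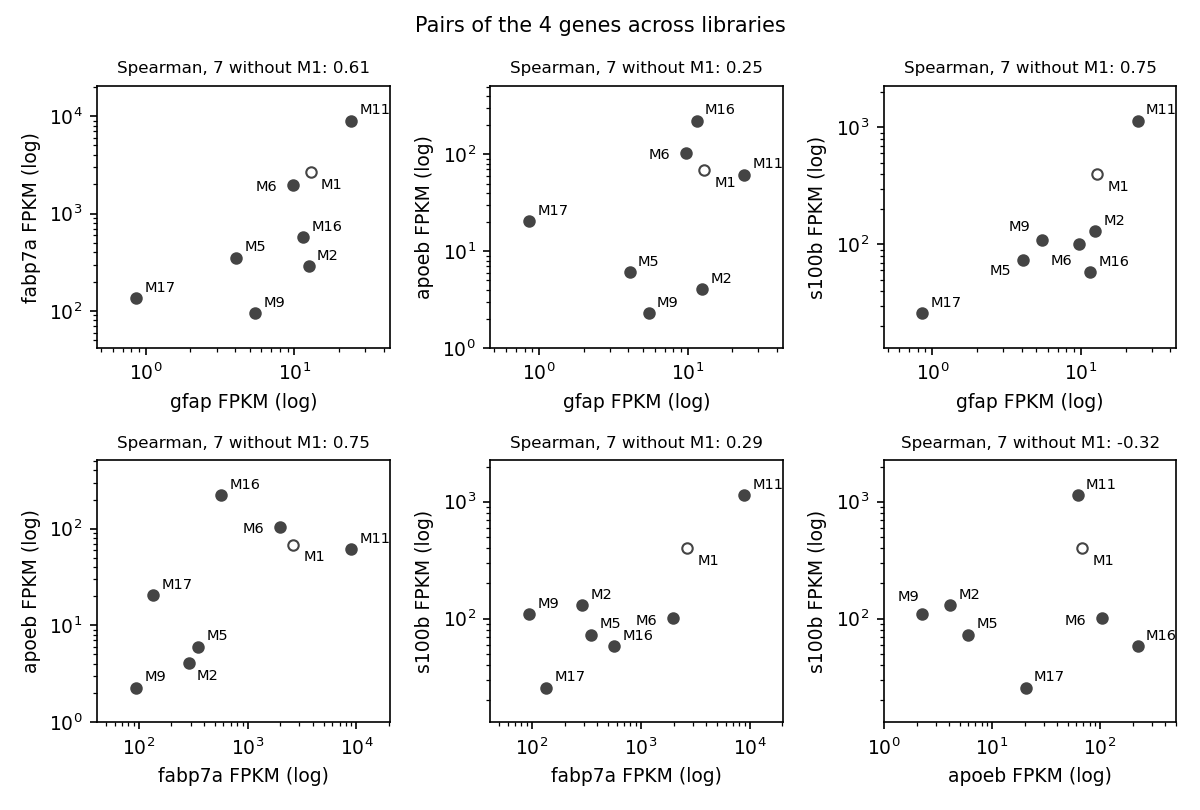
FPKM of each pair of the 4 genes on log axes. Each point is a library, named beside it, with M1 open, and the Spearman correlation above a panel is over the 7 libraries without M1. M11 stands at the upper right for gfap, fabp7a and s100b, while M16 and M6 are high in apoeb without being high in s100b.

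M11 carried much of what the genes had in common. With M1 and M11 both left out, the median rho of the 6 pairs was 0.23 over 6 libraries, that of fabp7a with s100b was -0.14 and that of apoeb with s100b -0.66. The pair of gfap and s100b kept a rho of 0.60 and that of fabp7a and apoeb 0.77. Without M1 and M17, the library with fewest detected features, the median was 0.37. As Pearson's r of log2(FPKM + 1), which weighs the size of the differences, the median of the pairs was 0.68 over 7 libraries and 0.40 without M11. Many other features were as closely related to these genes. Of the 12166 other features tested, 4.76% were at least as closely related to gfap as s100b was (r = 0.81), 9.09% as fabp7a was (r = 0.73) and 49.4% as apoeb was (r = 0.35).

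Library measures moved with the genes to differing degrees. Over 7 libraries, rho with the number of features at FPKM 1 was 0.68 for fabp7a, 0.43 for s100b, 0.29 for gfap and 0.29 for apoeb, and rho with counted reads was between 0.04 and 0.43. The share of reads on ENSDARG00000080337 gave rho between -0.50 (fabp7a) and -0.04 (apoeb). The part of these measures in the levels was not tested.

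The features most like each gene, by r over the 7 libraries, reached 0.98 and 0.97. For gfap these were RUNDC3A (0.98), DPYSL5 (0.97) and TCEA1 (0.97), with 108 features (0.888%) at 0.9 or above. For fabp7a they were RFX4 (0.98), a transcription factor that ran from 0.0470 FPKM in M17 to 22.5 in M11, si:dkey-151g10.6 (0.98) and DPYSL2 (0.98), with 232 features (1.91%) at 0.9 or above. For apoeb they were ppap2d (0.97), RAP1GDS1 (0.97) and zgc:171772 (0.97), with 101 such features (0.830%), and for s100b ODR4 (0.97), SEC61A1 (0.97) and si:dkeyp-69b9.6 (0.96), with 66 (0.542%). With 7 cells and 12166 features such values occur for many genes at once.

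Further genes of radial glia and astroglia, taken as a sum, had an order of cells that, among the 4 genes, was closest to that of fabp7a. Of 22 such genes besides the 4, 11 could be matched by symbol, to 12 features. Of these, 2 reached FPKM 1 in all 7 libraries without M1, as did 10.7% of all features with an Ensembl ID. They were ndrg3a and a feature named VIM (ENSDARG00000010008), the filament protein vimentin. Only ptgdsb.2 reached it in none. The number of the 12 features at FPKM 1 was 10 in M11, 9 each in M5, M6 and M16, 7 in M2, 5 in M9 and 3 in M17. Of all 37287 features the share at FPKM 1 was 35.8% in M11, 31.2% in M5, 36.6% in M6, 26.2% in M16, 25.8% in M2, 29.4% in M9 and 19.4% in M17. The summed FPKM of the 12 features was 1099 in M11, 931 in M6, 612 in M16, 398 in M2, 348 in M5, 180 in M9 and 124 in M17 (519 in M1). Most of this sum was ndrg3a in M6 (635), M5 (293), M2 (272), M9 (146) and M17 (112). It made up less in M11 (416) and M16 (302). M11, M6 and M16 were thus high and M9 and M17 low, and rho of the sum was 0.93 with fabp7a, 0.82 with gfap, 0.61 with apoeb and 0.54 with s100b. Such closeness to fabp7a was not limited to this list, since the sum of 4 features listed for inhibitory transmission had a rho of 0.89 with it. With names that lack the zebrafish letter for duplicates matched too, the sum of 6 such features had 0.96, above the 0.93 of the glial sum. Most of the sum of the 4 in M16, M5, M9 and M2 was SLC6A9, a glycine transporter gene. Whether that sum stands for neurons or for glia was not tested. Of 11 glial features with any reads, 10 had a positive r with fabp7a, and the median r was 0.77 against 0.35 over all 12166 features, of which 74.6% were positive. For apoeb the median r of these features was 0.54 against 0.05 over all, for gfap 0.58 against 0.35 and for s100b 0.51 against 0.38.

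Among these, ndrg3a had a median of 293 FPKM and was highest in M6 (635). ATP1B4, of the family of sodium pump beta subunits, had a median of 49.4 FPKM and ran from 0.670 in M17 to 282 in M11. The VIM feature, with a median of 21.2 FPKM, varied little, between 6.26 in M17 and 25.8 in M6, and had an r of 0.17 with fabp7a. A second feature named VIM (ENSDARG00000044501) had an r of 0.90 with fabp7a. It was at 6.93 FPKM in M11, 3.42 in M6 and at most 0.179 in the other libraries without M1. The lipocalin gene ptgdsb.1, picked after its values were seen, was at 315 FPKM in M11, 188 in M16, 120 in M6 and 19.1 in M2, but at 1.11, 0.681 and 0.675 in M5, M17 and M9.

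Other glial genes are named in the reference table without the zebrafish letter that tells duplicates apart and were added after their values had been seen. With them the list held 25 features for 19 of the 22 genes. Of the 25, 4 reached FPKM 1 in all 7 libraries, as did 10.7% of all features with an Ensembl ID. Another 4 reached it in none, a share that was not counted over all features. Listed at 0 in every library were a feature named CYP19A1, an aromatase, and 1 of 2 features named SLC1A2. Without its letter, the name CYP19A1 does not tell whether this is the aromatase of the brain. Both features named SLC1A3, another glutamate transporter, had a median of 0 and reached FPKM 1 in 2 of 7 libraries, and 2 features named SOX9, a transcription factor of glia, had medians of 1.38 and 0.0947 FPKM. A feature named SLC4A4 (ENSDARG00000013730) had a median of 39.9 FPKM and reached FPKM 5 in all 7 libraries, with 8.95 in M9 and 202 in M11. The 3 described next were picked among the other abundant ones. A feature named GLUL (ENSDARG00000099776), glutamine synthetase, was at 1190 FPKM in M11, 897 in M6, 555 in M16 and 183 in M2, but at 45.0, 29.8 and 4.29 in M17, M5 and M9. A feature named GJA1 (ENSDARG00000041799), the gap junction protein connexin 43, was at 133 FPKM in M11, 121 in M16 and 83.3 in M6, against 0.207 in M9. A feature named SLC1A2 (ENSDARG00000102453), a glutamate transporter of astroglia, was at 133 FPKM in M6 and 129 in M11, against 0.137 in M9 and 0.546 in M17. M9, M17 and M5 were the low libraries of all 3, whereas fabp7a was lower in M2 (288 FPKM) than in M5 (352), and s100b in M9 (110 FPKM) was at the level of M6 (101). The duplicates of fabp7a and apoeb were low: a second feature named FABP7 (ENSDARG00000034650) reached FPKM 1 only in M6 (4.32) and M11 (2.21), and apoea in M5 (1.24) only.

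**Figure D4:**
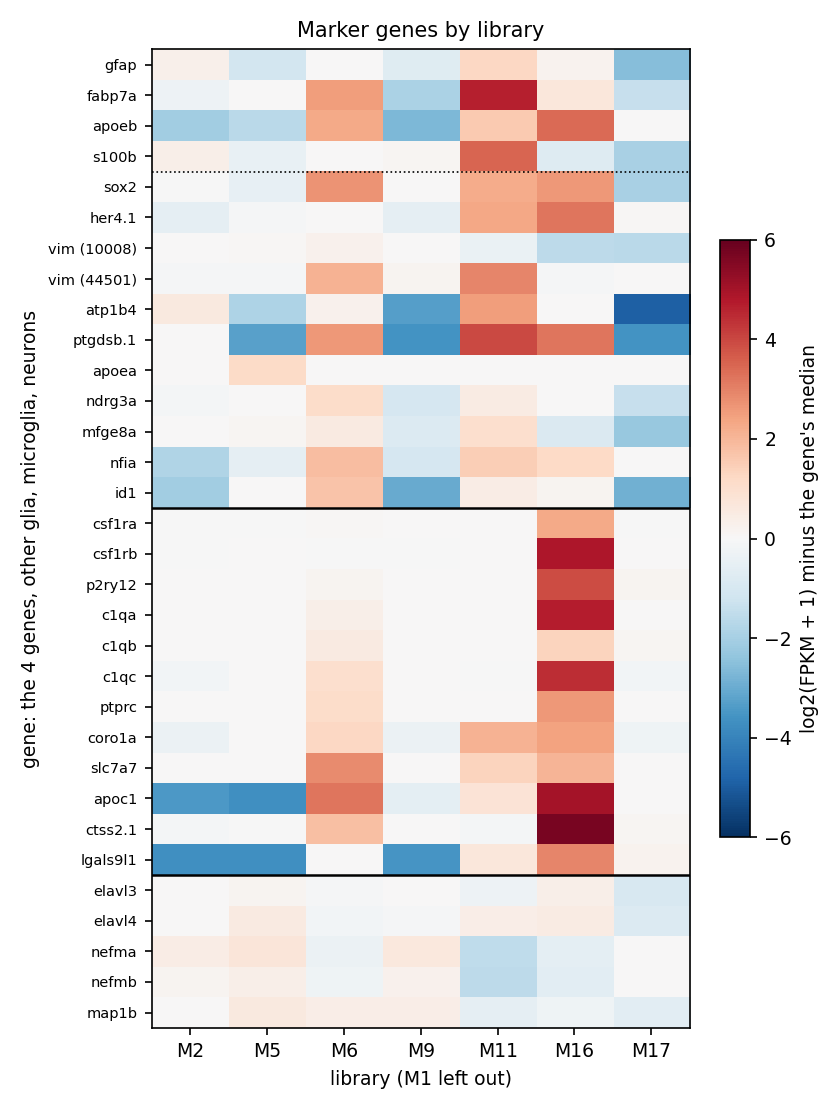
Marker genes (rows) in the 7 libraries without M1 (columns). Colors give log2(FPKM + 1) minus the gene's median over the 7 libraries, red for above and blue for below. The first 4 rows are the 4 genes, followed by other radial glia and astroglia genes, microglia genes and neuronal genes, and features named alike carry the last digits of their ID. M11 and M6 are red in most glial rows, and M16 is red in apoeb and in the microglia rows.

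Markers of microglia, the phagocytes of the brain, moved with apoeb. All 12 features matched for this list reached FPKM 1 in M16, 7 did so in M6, 4 in M11, 2 in M17 and 1 each in M2, M5 and M9, while the share of all features at FPKM 1 was lower in M16 (26.2%) than in M6 (36.6%) or M11 (35.8%). Their summed FPKM was 1796 in M16, 462 in M6, 109 in M11, 61.3 in M17, 31.6 in M9, 3.41 in M2 and 3.19 in M5, and rho with apoeb was 0.86 over 7 libraries and 0.90 over 8. With fabp7a it was 0.54, with gfap 0.32 and with s100b -0.18. Most of the sum in each library was apoc1, an apolipoprotein gene, at 1533 FPKM in M16, 435 in M6, 83.1 in M11 and 46.7 in M17. It stood at 31.3 in M9, 3.41 in M2 and 2.70 in M5, so the rho of the sum over 7 libraries was that of apoc1. Taken singly, the 12 features had a median r of 0.75 with apoeb. The median over the 12166 features was 0.05, but those had reached FPKM 1 in 3 or more of the 7 libraries. Many of the 12 had not, so these medians are not a like comparison. For csf1rb, P2RY12 and c1qa, near 0 outside M16, r was 0.62, 0.63 and 0.65 and rested on M16. Of the 12, 11 were highest in M16, as was apoeb. Next by median were lgals9l1 (12.02 FPKM), a galectin gene, and coro1a (0.264 FPKM). Of the 12 features, 5 reached FPKM 1 in M16 alone among the 7 libraries. These included csf1rb, a receptor of the growth factor CSF1, at 28.2 FPKM in M16 and at most 0.0612 in the other 6 libraries, P2RY12, a purine receptor, at 13.9 in M16 and at most 0.131 in those 6, and c1qa, a complement component, at 25.4 in M16 and at most 0.257 in those 6. In M11 and M9, csf1rb was at 0.0273 and 0, P2RY12 and c1qa were at 0, and apoeb was at 61.9 and 2.27 FPKM. Other members were not limited to M16: in M11 apoc1 was at 83.1 FPKM, lgals9l1 at 19.8 and coro1a at 4.44, and slc7a7, an amino acid transporter, was at 6.22 in M6 and 1.502 in M11 against 3.05 in M16. A feature named SPI1, a transcription factor of myeloid cells matched without its letter, was at 13.3 in M6 and 5.69 in M16. In M1, csf1rb was at 5.86. The part of these genes in the level of apoeb was not tested.

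Markers of other cells differed in their orders, and the sums of some lists came close to the order of fabp7a or gfap. The summed FPKM of 9 oligodendrocyte and myelin features ranged from 517 in M5 to 37398 in M2, nearly all of it mbpa (myelin basic protein), and rho was 0.57 with gfap, 0.39 with s100b, 0.00 with fabp7a and -0.07 with apoeb. Its members differed in their order. Among the 7 libraries without M1, the lineage genes SOX10 and olig1 were highest in M11 (5.39 and 3.49 FPKM), whereas OLIG2 was at 0 in M11 and at 8.61 in M16. The myelin genes cldnk and mag were highest in M17 (32.7 and 7.24 FPKM) and at 0.0649 and 0 in M11. The sum of 5 neuronal features, mostly the neurofilament genes nefma and nefmb, was lowest in M11 (8469) and highest in M5 (32650), and rho was -0.71 with fabp7a, -0.61 with gfap, -0.79 with apoeb and -0.14 with s100b. These values rested on nefma and nefmb, whose r with fabp7a was -0.84 and -0.86, while that of elavl3 was 0.06 and that of elavl4 0.43. Over 14 neuronal features, matched also without the letter, 10 had a positive r with fabp7a and the median was 0.17, against 0.35 over all features. Of the genes for inhibitory transmission, GAD2, an enzyme of GABA synthesis, was highest in M11 (56.7 FPKM), M6 (12.9) and M16 (6.92), the libraries also highest in fabp7a, and lay between 0.0276 and 0.734 in the others without M1. The summed FPKM of the 4 features matched for inhibitory transmission had a rho of 0.89 with fabp7a, 0.79 with apoeb, 0.32 with gfap and 0.07 with s100b. Over 6 features, matched also without the letter, it was 0.96, 0.82, 0.43 and 0.11 in the same order. SLC6A9 was the largest part of the sum of the 4 in M16 (19.9 FPKM), M6 (16.6), M5 (7.42), M9 (1.44) and M2 (0.385), but not in M11 or M17. For 7 features of commissural neuron identity, rho of the sum was 0.82 with fabp7a, 0.79 with gfap, 0.71 with apoeb and 0.29 with s100b. Most of this sum was lhx1a and lhx5, while the evx1 and EVX2 features were at 0 in every library and PAX8 above 0 in M11 alone without M1. Over 11 features, matched also without the letter, gfap was closest (0.93), before fabp7a (0.79), s100b (0.54) and apoeb (0.50). Of 6 endothelial and blood features, kdrl, cdh5 and alas2 reached FPKM 1 in no library, and the alpha globin genes hbaa1 and hbaa2 reached at most 1.08 and 1.86. The carbonic anhydrase gene cahz made up most of their sum, from 0.152 FPKM in M17 to 30.0 in M16, and rho of the sum was 0.89 with gfap, 0.61 with fabp7a, 0.50 with apoeb and 0.43 with s100b. A feature named FLI1, matched without its letter, was at 5.25 FPKM in M11 and at most 0.0792 in the other 6. How far these genes bear on the levels of the 4 genes was not tested.

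M1 held the reads of the 4 genes in unequal parts. Of its 78148 reads on fabp7a, the number in M11 alone came to 90.9%, and M11, M16 and M17 together to 96.6%. For apoeb, the 3564 reads in M1 compared with 3530 in the 3 libraries together, 99.0%, and M16 alone came to 67.6%. For s100b the sum was 81.3% of 39330 reads and for gfap 70.3% of 1629. The further reads of M1 beyond the sum, 13656553 over all features, would correspond to 314 FPKM of fabp7a, 261 of s100b, 13.3 of gfap and 2.28 of apoeb if taken as a library of their own. These values lay within the range of the 7 other libraries for each gene.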

How the data were processed

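RNA of single cells was amplified with the SMART-Seq v4 kit and sequenced as paired reads. The authors counted reads per gene with HTSeq (version 0.6.0 in the methods, 0.9.1 in the submitters' processing notes, which also name HISAT2 2.0.4) and deposited FPKM; build and annotation are not given in the sources used here. All 8 columns of values were used and 0 were left out. The 4 genes and the marker lists were chosen with earlier results of these data known.

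Symbols came from a reference table that names 29178 of the IDs, at times with a mammalian symbol. It names the 4 genes GFAP, FABP7, apoeb and S100B and gives FABP7 to 2 IDs. List genes were matched by symbol. How reads shared between similar genes were counted is not stated.

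Library totals, feature lengths and whole reads were recovered from ratios of FPKM between libraries (99.87% to 99.95% of the totals), a step checked on simulated data. Correlations use FPKM ranks (Spearman) or log2(FPKM + 1), and no p-value is given for them. Named were the 4 genes, up to 3 genes per marker list by median FPKM and any at FPKM 1 in none, and the 3 features with a symbol most like each gene; others were picked after their values were seen. The sign-flip tests and the features' SDs were also added after seeing the data. Alternatives were other limits and scalings, other correlations and leaving out libraries. Python 3.11.15, numpy 2.4.6, pandas 2.3.3, scipy 1.17.1 and matplotlib 3.10.9 were used.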

Additional observations from a re-analysis of the deposited data

Results flagged for a closer look

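In 5 of 8 comparisons, each a gene over 8 or over 7 libraries, the highest library stood apart by Dixon's criterion, which compares its gap to the next library with the whole range of FPKM. The criterion is set for about 1 in 20 by chance where values are normally distributed. The 8 comparisons share libraries and were made on FPKM, which are skewed, not on logarithms. That rate therefore cannot be set against the 5 of 8. For fabp7a, the gap of M11 was 0.713 of the range over 8 libraries and 0.788 over the 7 without M1. For s100b, the gap of M11 was 0.666 over 8 libraries and 0.906 over 7. For apoeb, the gap of M16 was 0.539 over 8 libraries, above the critical value for that number, and the same 0.539 over 7 libraries was below the higher value that applies there. For gfap the gap of M11 was 0.484 and 0.501, below both.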

How the results depend on the processing

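The 15 results (cells at FPKM 1 and 5 for each gene and for all 4, the median FPKM of each gene, and the median rho of the 6 pairs) were recomputed under 174 alternatives in all. In 173 the value stayed within 1.5 times a number of cells, within 1 SD over the 8 libraries of a median, or within 1 SD over the 6 pairs (0.362) of the median rho. The exception was the median rho, 0.607 over 8 libraries, which was 0.229 without M1 and M11, an alternative chosen after seeing the data; without M1 and M17, also added later, it was 0.371. Leaving out each library in turn gave 0.446 to 0.679, rescaling FPKM to the same sum in each library 0.583, and Pearson's r of log2(FPKM + 1) and log2(FPKM + 0.1) 0.706 and 0.693. These limits are wide, since the SD over libraries exceeds the median for fabp7a, apoeb and s100b, and they say little on the stability of the medians. Leaving out each library in turn gave medians of 9.79 to 11.5 FPKM for gfap (main value 10.6), 352 to 569 for fabp7a (460), 20.5 to 61.9 for apoeb (41.2) and 101 to 110 for s100b (105). Rescaling to a sum of 1000000 gave 16.995, 756, 61.9 and 175. Leaving out the highest feature and scaling the rest up to the former sum gave 16.1, 737, 63.2 and 144. Both scalings raise every value. Libraries with all 4 genes at FPKM 5 were 4 of 8, or 6 of 8 under both of these scalings and at a limit of 2.5, and 3 of 8 at a limit of 10. Those at FPKM 1 were 7 of 8, or 8 of 8 under both scalings. No paired analysis was possible because there is 1 group. Depth limited gfap and apoeb, whose lowest values rest on 26 and 25 reads.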
